A study of Homo sapiens with 6 samples.

Results

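The genes described here license, start, drive and supply DNA replication or switch on its genes, and 54 such genes were taken from the deposited table by gene symbol. All 54 were among the 25268 symbols of the deposited table, and all 54 passed a filter of at least 1 FPKM in at least 2 libraries, as did 12169 genes in all. They fall into 15 genes of origin recognition and licensing, 8 of helicase activation, 20 of the replication fork, 4 of nucleotide supply, 3 E2F activators and 4 of chromatin and histone supply. RNA was sequenced from A673, a single Ewing sarcoma cell line with the gene fusion EWSR1-FLI1, at 72 h of transfection with esiRNA, a pool of short interfering RNAs cut from a long double-stranded RNA. Cells received esiRNA against USP9X (esiUSP9X), a deubiquitinase, against FLI1 (esiFLI1), or against GFP as the non-targeting control (esiGFP), with 2 libraries in each group and the same serum-containing medium with penicillin and streptomycin. The FLI1 symbol also collects reads from the 3' part of the fusion, so a fall in FLI1 RNA covers both. The labels describe no sorting or synchronisation by cell-cycle phase, and they do not say whether replicates were separate cultures, so the p-values below measure only the spread between these libraries.

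Replication is licensed in G1, when the origin recognition complex, CDC6 and CDT1 load the MCM2 to MCM7 ring onto DNA. At the start of S phase, the kinase CDC7 with DBF4, and MCM10, CDC45 and the GINS complex, turn that ring into a moving helicase, behind which the clamp PCNA and the polymerases copy both strands. The RNA of most of these genes is made in waves around the G1 to S transition, when E2F transcription factors are freed from the RB family of pocket proteins. In Ewing sarcoma cells, EWS-FLI1 is known as the driver of proliferation.

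Levels are in FPKM, the fragments of a transcript scaled to its length and to the mapped fragments of the library. Sums per library ranged from 781732 to 907926 FPKM, with 11310 to 12071 genes at 1 FPKM or more. The symbol MIR6723 alone held 33.2% to 50.9% of the sum. The depth of the libraries is unknown, as the table holds no read counts. FLI1 stood at 25 and 31.9 FPKM in esiUSP9X, 12.7 and 14.1 FPKM in esiFLI1, and 24.1 and 36.4 FPKM in esiGFP, with a log2 change in esiFLI1 against esiGFP of -1.09 (blocked interval -1.37 to -0.81), with adjusted p = 0.128 without the block and 0.000439 with it. USP9X stood at 5.31 and 7.10 FPKM in esiUSP9X, 26.2 and 37.7 FPKM in esiFLI1, and 20.6 and 26.5 FPKM in esiGFP, with a log2 change in esiUSP9X against esiGFP of -1.77 (blocked interval -2.0 to -1.54), with adjusted p = 1 without the block and 0.000453 with it. Of 8 Ewing sarcoma markers, 7 were kept, and CD99 was listed at 0 in all 6 libraries. Their summed level was 925 and 915 FPKM in esiUSP9X, 412 and 444 FPKM in esiFLI1, and 906 and 965 FPKM in esiGFP. Of 6 epithelial markers, KRT8 and KRT18 were kept, and CDH1 was listed at 0 in all 6. The list summed to 230.2 and 162 FPKM in esiUSP9X, 246 and 142 FPKM in esiFLI1, and 199.5 and 148 FPKM in esiGFP. KRT8 stood at 14.5 and 8.39 FPKM in esiUSP9X, 21.3 and 12 FPKM in esiFLI1, and 7.63 and 4.12 FPKM in esiGFP, and was higher in both knockdowns without overlap. Its log2 change was 1.36 (blocked interval 1.13 to 1.58), with adjusted p = 0.223 without the block and 6.01e-05 with it in esiFLI1, and 0.86 (blocked interval 0.64 to 1.09), with adjusted p = 1 without the block and 0.021 with it in esiUSP9X. KRT18 was at 0.03 in esiFLI1 and 0.13 in esiUSP9X and was not called. Of 5 endothelial markers KDR was kept, at 0.153 and 0.148 FPKM in esiUSP9X, 1.30 and 1.33 FPKM in esiFLI1, and 0.106 and 0.0885 FPKM in esiGFP, and the list of 5 leukocyte markers summed to at most 0.689 FPKM in any library, with CD3E listed at 0 in all 6. Their part in the results below was not tested.

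In the control cells the members spanned a wide range of levels. PCNA, the sliding clamp, was the highest at 421 ± 54.5 FPKM (mean ± SD, n = 2), followed by MCM7 at 205 ± 25.6 and RRM2, the regulated subunit of ribonucleotide reductase, at 175 ± 10.8 FPKM. The lowest were E2F2 at 11 ± 2.29 FPKM, GINS3 at 12.8 ± 0.338 and ORC4 at 15.5 ± 5.65 FPKM. FPKM is scaled to transcript length, but the levels also shifted between replicates with the GC content of the transcripts, as described below. The order of levels is thus approximate. Only 8 of the 53 neighbouring pairs in that order had esiGFP libraries that did not overlap. The steps below PCNA, MCM7 and RRM2 were among those 8. Summed over the 54 members, the level was 3368 and 3201 FPKM in esiUSP9X, 2912 and 2707 FPKM in esiFLI1, and 3698 and 3691 FPKM in esiGFP. The mean sum was 88.9% of the esiGFP mean in esiUSP9X and 76.1% of it in esiFLI1, and the libraries of the 3 groups did not overlap. In bulk RNA, fewer cells in S phase and less RNA per cell cannot be told apart.

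**Figure D1:**
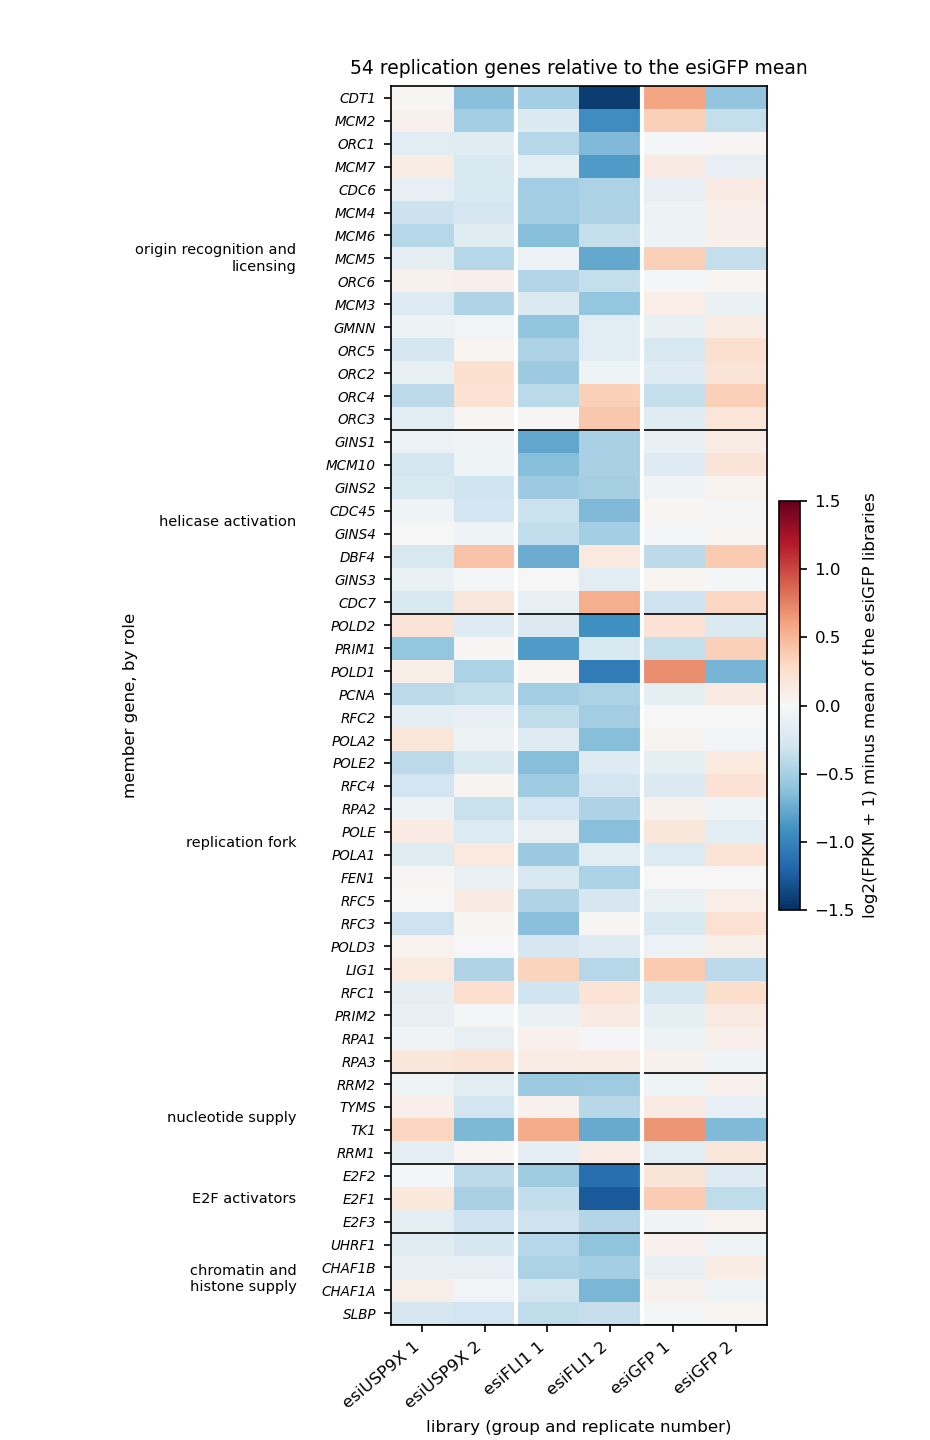
Each row is a member, grouped by role and sorted by its change in esiFLI1, and each column a library. Colour gives log2(FPKM + 1) minus the mean of the esiGFP libraries, blue below and red above. Blue fills most of the esiFLI1 columns, whose summed FPKM was 76.1% of the esiGFP mean, and in several rows, such as CDT1, TK1 and POLD1, the esiGFP replicates differ by more than the esiFLI1 and esiGFP means do.

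The promoters of these genes are shown first, because a shared E2F word is what textbooks name as the common feature of the set. Promoter windows of 300 bases, from 250 bases before the annotated start to 50 after it, were taken from RefSeq on GRCh38.p14 by gene symbol, and 48 of the 54 members had at least 1 window, 63 windows in all. RPA2, MCM4, MCM5, RPA3, GINS4 and POLD3 were not matched. The words TTTCCCGC, TTTCGCGC, TTTGCCGC and TTTGGCGC, the classical forms of the E2F site, were searched on both strands. At least 1 of them lay in 25 of the 63 member windows (39.7%), which belong to 24 genes, against 3.31% of all 35116 windows in the table. By role, windows with a word numbered 8 of 17 for licensing, 4 of 10 for helicase activation, 7 of 20 for the fork, 1 of 6 for nucleotide supply, 3 of 4 for the E2F activators and 2 of 6 for chromatin and histone supply. In the windows of MCM2 and MCM6, words on opposite strands overlapped each other. The sequences below are the 160 bases just before the start, 5' to 3' in the direction of transcription, of the member with the lowest log2 change in esiFLI1 among those of each role with a word there, and of 2 genes for the E2F activators. Capitals mark the E2F words. They lie at chr16:88803629-88803788 on the plus strand for CDT1, chr16:85688955-85689114 on the minus strand for GINS2, chr20:5126623-5126782 on the minus strand for PCNA and chr18:657493-657652 on the plus strand for TYMS. E2F2 is shown from chr1:23531234-23531393 and E2F1 from chr20:33686386-33686545, both on the minus strand, and UHRF1 from chr19:4909341-4909500 on the plus strand.
CDT1: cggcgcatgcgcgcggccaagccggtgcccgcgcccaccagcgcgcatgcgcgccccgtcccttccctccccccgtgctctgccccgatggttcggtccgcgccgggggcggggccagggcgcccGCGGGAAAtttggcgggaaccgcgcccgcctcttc
GINS2: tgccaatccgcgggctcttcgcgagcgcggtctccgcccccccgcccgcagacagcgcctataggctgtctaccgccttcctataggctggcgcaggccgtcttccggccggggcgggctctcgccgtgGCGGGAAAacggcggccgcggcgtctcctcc
PCNA: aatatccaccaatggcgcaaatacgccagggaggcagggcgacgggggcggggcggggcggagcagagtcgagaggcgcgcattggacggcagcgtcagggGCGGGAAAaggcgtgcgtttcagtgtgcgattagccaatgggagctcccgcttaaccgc
TYMS: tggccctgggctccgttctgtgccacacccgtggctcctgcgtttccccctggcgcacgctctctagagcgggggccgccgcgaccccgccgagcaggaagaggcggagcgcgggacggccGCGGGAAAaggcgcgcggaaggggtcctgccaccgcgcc
E2F2: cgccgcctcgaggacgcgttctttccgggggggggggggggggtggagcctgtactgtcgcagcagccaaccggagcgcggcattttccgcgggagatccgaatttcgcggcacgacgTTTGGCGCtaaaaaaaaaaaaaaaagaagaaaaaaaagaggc
E2F1: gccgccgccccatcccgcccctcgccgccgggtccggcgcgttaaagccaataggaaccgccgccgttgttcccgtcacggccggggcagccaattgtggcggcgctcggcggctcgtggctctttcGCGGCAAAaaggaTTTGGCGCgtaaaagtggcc
UHRF1: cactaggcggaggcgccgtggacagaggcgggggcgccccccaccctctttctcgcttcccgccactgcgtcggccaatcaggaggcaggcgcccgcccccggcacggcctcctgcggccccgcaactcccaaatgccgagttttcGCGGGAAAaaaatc

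The capitals begin 35 bases before the start in CDT1, 31 in GINS2, 59 in PCNA, 39 in TYMS, 42 in E2F2, 33 and 20 in E2F1 and 14 in UHRF1. These genes were chosen for a word in that stretch, and in other members some words lay further out, at 137 bases in POLA1, 152 in MCM6, 174 in MCM3 and 187 in MCM7. Nearer words were also present, at 86 bases in MCM6, 4 in MCM3 and 9 in MCM7. In CDC6, GINS1 and MCM2 words began past the start, at -7, -5, and -2 and -6 on this scale. A second word, TTTGAA, the core of the element known from promoters of G2 and mitosis genes, lay in 3 of the 63 member windows (4.76%) on either strand, against 23 of 39 windows of a list of G2 and mitosis genes (59.0%) and 15.2% of all windows. A match is a description of the letters only.

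Most replication genes stood lower after FLI1 knockdown. Of the 54 members, 49 had a log2 change below 0 in esiFLI1 against esiGFP, and their median was -0.41 against -0.03 over all genes tested. The fold changes are differences in log2(FPKM + 1), tested with limma in a single fit of all 6 libraries. Calls were made at an adjusted p under 0.05, by the Benjamini-Hochberg method over 12169 genes. In that fit, 0 members were called, and the lowest adjusted p of a member was 0.184. Of all genes, 0.23% were called lower and 2.58% higher (2.81% in either direction), so few lower calls were available to any list. At an unadjusted p under 0.05, 13 members were lower and 0 higher, with 5.42% of all genes lower. A second fit, called blocked here, added the replicate number as a term, since libraries with the same number deviated together in every pair of groups. In the blocked fit 39 of the 54 members fell, against a background of 21.6% of all genes called lower, and 0 rose, against 20.6% called higher. The libraries of the groups did not overlap for 30 members that were lower in esiFLI1, where 17.3% of all genes were lower without overlap. The only member higher without overlap was RPA3, where 19.8% of all genes were.

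Within each replicate number the direction was much the same. In replicate 1, 48 of the members were lower in esiFLI1, and in replicate 2, 51 were, with median differences of -0.35 and -0.44. The mean FPKM of a member in esiFLI1 ranged from 47.7% to 117% of its esiGFP mean, with a median of 75.2%, and 6 members were at least 1.5-fold lower. The change was thus moderate for most genes. By role, the blocked fit called lower 3 of 3 E2F activators, 4 of 4 chromatin and histone supply genes, 13 of 15 licensing genes, 6 of 8 helicase activation genes, 12 of 20 fork genes and 1 of 4 nucleotide supply genes. Over all genes 21.6% were called lower, and a smaller share was when a library of esiFLI1 or esiGFP was left out. Fewer members were called in those fits as well. Each leaves a single library in a group, so counts by role are not given for them.

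**Figure D2:**
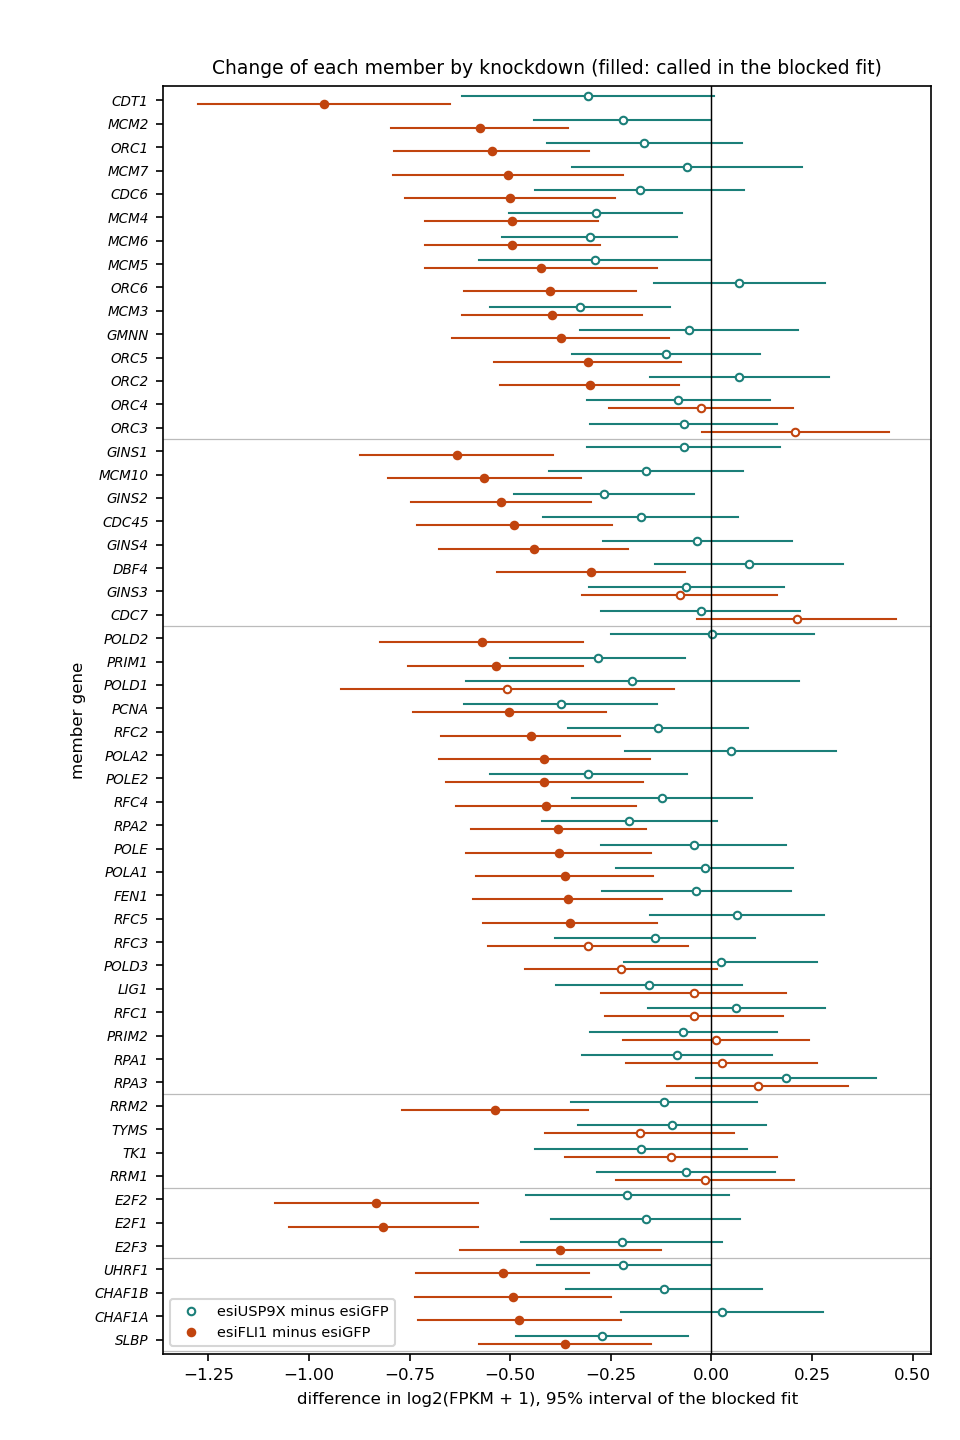
Differences in log2(FPKM + 1) from esiGFP for each member, with the 95% interval of the blocked fit, in esiUSP9X (green) and esiFLI1 (orange). Filled points were called in the blocked fit. The 39 filled points all belong to esiFLI1 and lie left of 0, between -0.96 and -0.30.

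The E2F activators had the lowest median of the 6 roles in esiFLI1 against esiGFP, -0.82. With GC correction and the block this median was -0.668, also the lowest. Without the block it was -0.373 when esiFLI1 replicate 2 was left out and -0.43 when esiGFP replicate 1 was, and helicase activation then had the lowest median, -0.455 and -0.522. In the blocked fit with the same libraries left out it was -0.721 and -0.812, the lowest of the 6. E2F1, which switches on many replication genes, stood at 42.3 and 26.6 FPKM in esiUSP9X, 28.9 and 15.2 FPKM in esiFLI1, and 49.6 and 28.6 FPKM in esiGFP. Each esiFLI1 library was lower than the esiGFP library of its replicate number, but the groups overlapped, and the log2 change was -0.82 (blocked interval -1.05 to -0.58), with adjusted p = 0.492 without the block and 0.000741 with it. E2F2 stood at 10.7 and 8.08 FPKM in esiUSP9X, 7.22 and 4.42 FPKM in esiFLI1, and 12.6 and 9.38 FPKM in esiGFP, the lowest mean level of the 54 in each group, and its esiFLI1 and esiGFP libraries did not overlap. Its log2 change in esiFLI1 was -0.83 (blocked interval -1.09 to -0.58), with adjusted p = 0.273 without the block and 0.000917 with it. E2F3, the third activator, stood at 17.6 and 15.5 FPKM in esiUSP9X, 15.5 and 14.1 FPKM in esiFLI1, and 18.8 and 20.2 FPKM in esiGFP, and its groups did not overlap either. The log2 change was smaller, -0.38 (blocked interval -0.62 to -0.13), with adjusted p = 0.423 without the block and 0.0253 with it. Within replicate numbers 1 and 2, E2F1 differed by -0.76 and -0.87, E2F2 by -0.73 and -0.94 and E2F3 by -0.26 and -0.49. The call of E2F3 did not hold with each library left out.

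Among the licensing genes, CDT1, the loader of the MCM ring, had the lowest change of all 54 members. CDT1 stood at 23.2 and 14.5 FPKM in esiUSP9X, 15.9 and 7.97 FPKM in esiFLI1, and 35.1 and 14.9 FPKM in esiGFP. The libraries of replicate number 2 were low in every group, and the esiFLI1 and esiGFP libraries overlapped by a narrow margin, with the higher esiFLI1 library above the lower esiGFP one. The log2 change in esiFLI1 was -0.96 (blocked interval -1.28 to -0.65), with adjusted p = 0.495 without the block and 0.00124 with it. CDC6, its partner in loading, stood at 31.8 and 29.5 FPKM in esiUSP9X, 23.9 and 24.7 FPKM in esiFLI1, and 31.9 and 38 FPKM in esiGFP, without overlap between esiFLI1 and esiGFP. Its log2 change was -0.50 (blocked interval -0.76 to -0.24), with adjusted p = 0.275 without the block and 0.00961 with it.

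Of the origin recognition complex, ORC1, the large subunit whose level is cell-cycle regulated, stood at 26.9 and 26.5 FPKM in esiUSP9X, 22 and 18.7 FPKM in esiFLI1, and 29.8 and 30.4 FPKM in esiGFP. The groups did not overlap, and the log2 change was -0.55 (blocked interval -0.79 to -0.30), with adjusted p = 0.225 without the block and 0.0049 with it. ORC6 at -0.40, ORC5 at -0.31 and ORC2 at -0.30 fell in the blocked fit, where their adjusted p was 0.0106, 0.0406 and 0.0368. ORC4 at -0.03 and ORC3 at 0.21 were not, with blocked intervals of -0.25 to 0.20 and -0.02 to 0.44. The subunits of this complex thus spanned log2 changes on both sides of 0, and under quantile normalization ORC3 was called higher in the blocked fit (log2 change 0.32, adjusted p = 0.0369).

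All subunits of the MCM ring, the core of the replicative helicase, were called lower in the blocked fit of the 6 libraries. The calls of MCM3, MCM5 and MCM7 did not hold with each library left out. MCM2 stood at 114 and 76.3 FPKM in esiUSP9X, 93.7 and 56.5 FPKM in esiFLI1, and 139 and 85.1 FPKM in esiGFP, with overlapping groups and a log2 change of -0.58 (blocked interval -0.80 to -0.36), with adjusted p = 0.601 without the block and 0.00261 with it. MCM7, which had the highest level of the ring, stood at 220.1 and 173 FPKM in esiUSP9X, 182 and 113 FPKM in esiFLI1, and 223 and 186 FPKM in esiGFP. Its groups did not overlap, by a margin that was small beside the difference between replicates, and the log2 change was -0.51 (blocked interval -0.79 to -0.22), with adjusted p = 0.518 without the block and 0.0134 with it. The others changed by -0.50 for MCM4, -0.49 for MCM6, -0.42 for MCM5 and -0.40 for MCM3, with blocked adjusted p between 0.00447 and 0.0276. GMNN, which encodes geminin, the inhibitor of CDT1, was also called lower, at -0.37 (blocked adjusted p = 0.0342). The fall in the blocked fit therefore covered loader, ring and inhibitor alike, 13 of 15 genes.

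**Figure D3:**
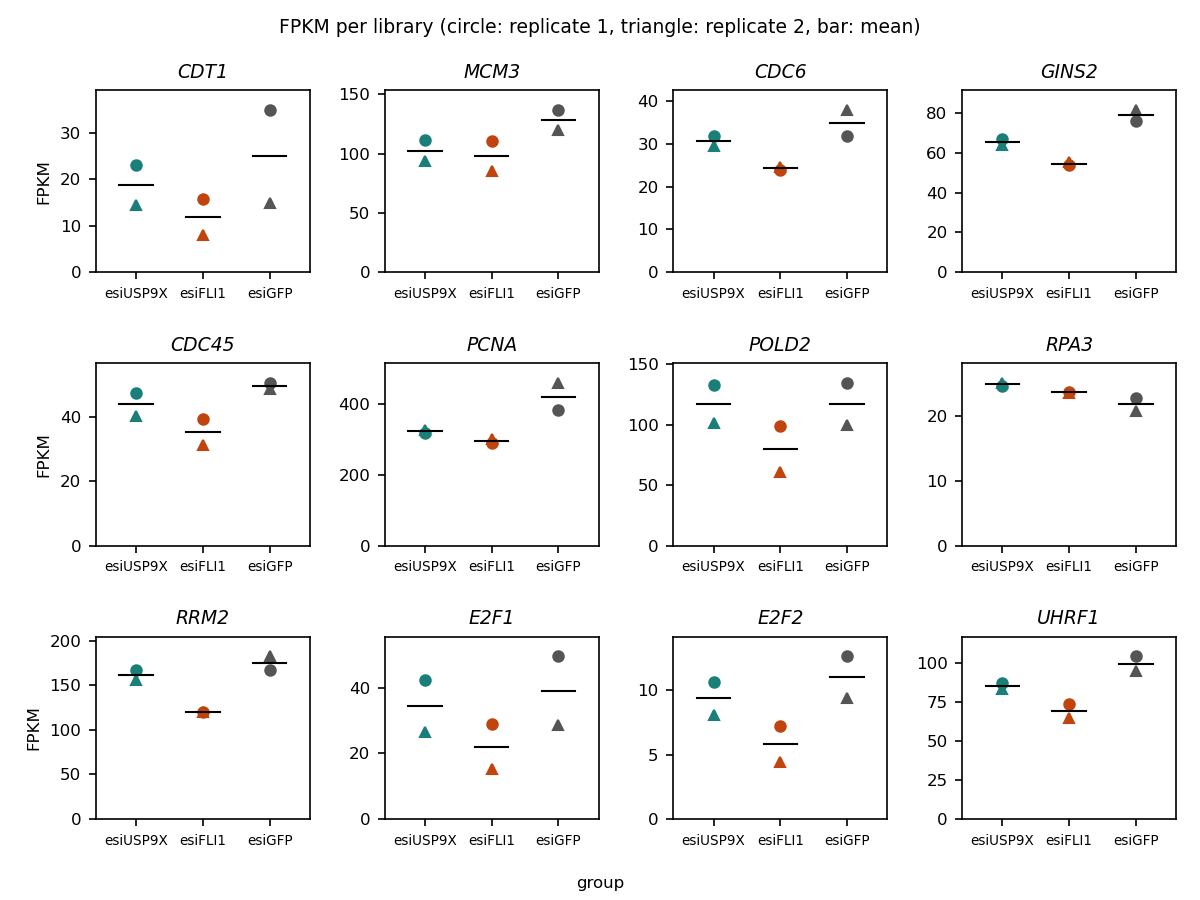
FPKM of 12 members in each library, with replicate 1 as a circle, replicate 2 as a triangle and the group mean as a bar, on axes that start at 0. CDC6, GINS2, PCNA, RRM2 and UHRF1 show esiFLI1 libraries close together and below both esiGFP libraries, while in CDT1 and E2F1 the gap between the esiGFP replicates is wider than that between the esiFLI1 and esiGFP means, and RPA3 is lowest in esiGFP.

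The helicase activation genes had a median log2 change of -0.47. GINS1, a subunit of the GINS complex that binds the ring, stood at 37.1 and 37.8 FPKM in esiUSP9X, 22.6 and 27.7 FPKM in esiFLI1, and 36.4 and 42.5 FPKM in esiGFP. The esiFLI1 and esiGFP libraries did not overlap, and the log2 change was -0.63 (blocked interval -0.87 to -0.39), with adjusted p = 0.202 without the block and 0.00251 with it. GINS2 stood at 66.9 and 63.7 FPKM in esiUSP9X, 53.8 and 55.3 FPKM in esiFLI1, and 75.8 and 81.8 FPKM in esiGFP, again without overlap, with a log2 change of -0.52 (blocked interval -0.75 to -0.30), with adjusted p = 0.2 without the block and 0.00416 with it. GINS4 was lower as well, at 18 and 17.2 FPKM in esiUSP9X, 13.7 and 12.3 FPKM in esiFLI1, and 17.7 and 18.4 FPKM in esiGFP, with a log2 change of -0.44 (blocked interval -0.68 to -0.21), with adjusted p = 0.316 without the block and 0.0104 with it. GINS3 was the exception in this complex, at 11.9 and 12.5 FPKM in esiUSP9X, 12.9 and 11.3 FPKM in esiFLI1, and 13.1 and 12.6 FPKM in esiGFP, with overlapping groups and a log2 change of -0.08 (blocked interval -0.32 to 0.16), with adjusted p = 0.903 without the block and 0.567 with it.

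MCM10, which helps to start the helicase, stood at 27.5 and 31.5 FPKM in esiUSP9X, 20.9 and 23.3 FPKM in esiFLI1, and 28.7 and 38.1 FPKM in esiGFP. Its esiFLI1 and esiGFP libraries did not overlap, and the log2 change was -0.56 (blocked interval -0.80 to -0.32), with adjusted p = 0.301 without the block and 0.00416 with it. CDC45, which joins the ring and GINS in the active helicase, stood at 47.6 and 40.5 FPKM in esiUSP9X, 39.6 and 31.2 FPKM in esiFLI1, and 50.6 and 48.8 FPKM in esiGFP, with no overlap and a log2 change of -0.49 (blocked interval -0.73 to -0.25), with adjusted p = 0.34 without the block and 0.00793 with it. The kinase that fires origins gave a divided result. Its regulatory subunit DBF4 stood at 28.1 and 45 FPKM in esiUSP9X, 19.5 and 36.9 FPKM in esiFLI1, and 25.2 and 43.9 FPKM in esiGFP, with a log2 change of -0.30 (blocked interval -0.53 to -0.07), with adjusted p = 0.852 without the block and 0.0449 with it. The catalytic subunit CDC7 stood at 16.4 and 21.9 FPKM in esiUSP9X, 17.7 and 28.6 FPKM in esiFLI1, and 15.3 and 24.2 FPKM in esiGFP, with a log2 change of 0.21 (blocked interval -0.04 to 0.46), with adjusted p = 0.865 without the block and 0.146 with it. Both kinase genes had overlapping groups and were higher in replicate 2 than in replicate 1 of every group.

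The fork genes had a median log2 change of -0.37, and 10 of the 20 were lower in esiFLI1 without overlap, where 17.3% of all genes were. PCNA stood at 319 and 328 FPKM in esiUSP9X, 291 and 301 FPKM in esiFLI1, and 383 and 459.8 FPKM in esiGFP. The groups did not overlap, and the log2 change in esiFLI1 was -0.50 (blocked interval -0.74 to -0.26), with adjusted p = 0.243 without the block and 0.00681 with it. RFC2, a subunit of the complex that loads PCNA, stood at 82.3 and 83.9 FPKM in esiUSP9X, 69.7 and 63.5 FPKM in esiFLI1, and 90.7 and 91.8 FPKM in esiGFP, without overlap and with a log2 change of -0.45 (blocked interval -0.67 to -0.23), with adjusted p = 0.265 without the block and 0.00801 with it. RFC4 at -0.41 and RFC5 at -0.35 were also called lower in the blocked fit, whereas RFC3 at -0.31 (adjusted p = 0.0521) and RFC1 at -0.04 (adjusted p = 0.735) were not.

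Among the polymerases, POLD2, the small subunit of polymerase delta, stood at 133 and 101 FPKM in esiUSP9X, 99.1 and 60.7 FPKM in esiFLI1, and 134 and 99.5 FPKM in esiGFP. The higher esiFLI1 library stayed just below the lower esiGFP library, and the log2 change was -0.57 (blocked interval -0.82 to -0.32), with adjusted p = 0.503 without the block and 0.00484 with it. POLD1, the catalytic subunit, stood at 24.1 and 16 FPKM in esiUSP9X, 23.2 and 10.5 FPKM in esiFLI1, and 37.4 and 13.6 FPKM in esiGFP. Its esiFLI1 replicates, and its esiGFP replicates, differed by more than the means of those groups, and its log2 change of -0.51 was not called (blocked interval -0.92 to -0.09, adjusted p = 0.798 without the block and 0.0528 with it), whereas without esiGFP replicate 2 the blocked fit called it lower (adjusted p = 0.00011). PRIM1, the catalytic primase subunit, stood at 52.9 and 80.5 FPKM in esiUSP9X, 43.8 and 67.9 FPKM in esiFLI1, and 61.8 and 102 FPKM in esiGFP, overlapping in spite of a drop in each replicate number, with a log2 change of -0.54 (blocked interval -0.75 to -0.32), with adjusted p = 0.624 without the block and 0.00337 with it. PRIM2, its partner in the primase, was at 0.01 (blocked adjusted p = 0.937).

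The remaining polymerase genes, POLA1 at -0.36, POLA2 at -0.42, POLE at -0.38 and POLE2 at -0.41, were called lower in the blocked fit, with adjusted p between 0.016 and 0.0208, and POLD3 at -0.22 was not (0.117). FEN1, the nuclease that trims the flaps of Okazaki fragments, was called at -0.36 (blocked adjusted p = 0.0244), but LIG1, the ligase that seals them, was not, at -0.04 (0.742). The single-strand binding protein RPA was also divided. RPA2 was called at -0.38 (blocked adjusted p = 0.0141), RPA1 was at 0.03 (0.859), and RPA3 stood at 24.7 and 25.1 FPKM in esiUSP9X, 23.7 and 23.6 FPKM in esiFLI1, and 22.7 and 20.8 FPKM in esiGFP. RPA3 was lowest in the esiGFP libraries, with a log2 change in esiFLI1 of 0.11 (blocked interval -0.11 to 0.34), with adjusted p = 0.846 without the block and 0.367 with it.

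The nucleotide supply genes had the median closest to 0 among the 6 roles in esiFLI1, a log2 change of -0.14, which became 0.01 under quantile normalization. Without the block it was -0.477 when esiFLI1 replicate 1 was left out and -0.386 when esiGFP replicate 2 was. The fork genes were then at -0.271 and -0.257. Such a fit sets a single replicate number against the mean of both, so the difference between replicates enters it. Within replicate numbers 1 and 2 the medians were -0.08 and -0.198 for nucleotide supply and -0.333 and -0.366 for the fork. RRM2 stood at 167 and 156 FPKM in esiUSP9X, 119.6 and 120.4 FPKM in esiFLI1, and 167 and 183 FPKM in esiGFP, with nearly equal esiFLI1 libraries well below both esiGFP libraries. Its log2 change was -0.54 (blocked interval -0.77 to -0.31), with adjusted p = 0.184 without the block and 0.00426 with it. RRM1, the large subunit of the same reductase, stood at 100.3 and 113 FPKM in esiUSP9X, 101 and 121 FPKM in esiFLI1, and 99 and 125 FPKM in esiGFP, with overlapping groups and a log2 change of -0.02 (blocked interval -0.24 to 0.20), with adjusted p = 0.986 without the block and 0.904 with it. TYMS, which makes thymidylate, stood at 126 and 98.4 FPKM in esiUSP9X, 125 and 88.8 FPKM in esiFLI1, and 129 and 109.8 FPKM in esiGFP, with a log2 change of -0.18 (blocked interval -0.41 to 0.06), with adjusted p = 0.84 without the block and 0.191 with it. TK1, the thymidine kinase of the salvage route, stood at 104 and 52.2 FPKM in esiUSP9X, 123 and 49.1 FPKM in esiFLI1, and 132 and 52.5 FPKM in esiGFP, so that the replicates of each group lay further apart than the groups. The log2 change of TK1 was -0.10 (blocked interval -0.36 to 0.16), with adjusted p = 0.971 without the block and 0.502 with it. Thus 1 of the 4 was called, and whether RRM2 differs from RRM1 in its change was not tested.

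All 4 chromatin and histone supply genes fell in esiFLI1 in the blocked fit of the 6 libraries. Their esiFLI1 and esiGFP libraries did not overlap, where 17.3% of all genes were lower without overlap. The calls of CHAF1A, CHAF1B and SLBP did not hold when esiFLI1 replicate 2 or esiGFP replicate 2 was left out. UHRF1, which brings the maintenance methyltransferase to newly copied DNA, stood at 87.7 and 83.4 FPKM in esiUSP9X, 73.8 and 65 FPKM in esiFLI1, and 105 and 95 FPKM in esiGFP. The log2 change was -0.52 (blocked interval -0.73 to -0.30), with adjusted p = 0.229 without the block and 0.00368 with it. CHAF1A, the large subunit of the histone chaperone CAF-1, stood at 42.5 and 38.8 FPKM in esiUSP9X, 32.8 and 24.5 FPKM in esiFLI1, and 41.7 and 38.2 FPKM in esiGFP, with a log2 change of -0.48 (blocked interval -0.73 to -0.23), with adjusted p = 0.375 without the block and 0.0103 with it. CHAF1B, its partner subunit, stood at 45 and 45 FPKM in esiUSP9X, 35 and 34.1 FPKM in esiFLI1, and 45.1 and 53.1 FPKM in esiGFP, with a log2 change of -0.49 (blocked interval -0.74 to -0.25), with adjusted p = 0.262 without the block and 0.00789 with it. SLBP, which binds the stem-loop of replication-dependent histone mRNAs, stood at 74.3 and 72.8 FPKM in esiUSP9X, 68.2 and 69.6 FPKM in esiFLI1, and 86.9 and 91.2 FPKM in esiGFP, with a log2 change of -0.36 (blocked interval -0.58 to -0.15), with adjusted p = 0.358 without the block and 0.0158 with it.

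The changes in esiFLI1 against esiGFP were also read by the presence of an E2F word, with no test. Of 24 genes with a word, 18 were called lower in the blocked fit, with a median log2 change of -0.41. Of 24 genes with a window but no word, 17 were called lower, with a median of -0.38. Of the 6 genes without a window in the table, 4 were. Over all genes, the blocked fit called 21.6% lower. Genes outside the members were not split by word.

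Other cell-cycle lists were set beside the members. Over all genes, the blocked fit called 21.6% lower and 20.6% higher in esiFLI1 against esiGFP. Of 46 further replication and S phase genes, the blocked fit called 20 lower and 4 higher in esiFLI1, with a median log2 change of -0.19, and without the block 0 were called (2 lower and 1 higher at an unadjusted p under 0.05). CHTF18, a subunit of an alternative clamp loader, changed by -0.87 (blocked adjusted p = 0.00697), DCTPP1, a dCTP-cleaving enzyme, by -0.75 (0.000767), and RECQL4, a helicase of the same family as BLM, by -0.68 (0.00307). SAMHD1, which degrades deoxynucleotides, went the other way. It stood at 7.39 and 8.87 FPKM in esiUSP9X, 13.3 and 15.6 FPKM in esiFLI1, and 7.36 and 9.14 FPKM in esiGFP, with a log2 change of 0.75 (blocked interval 0.52 to 0.97), with adjusted p = 0.176 without the block and 0.000924 with it.

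Of 25 kept E2F partners, pocket proteins and G1 to S regulators, the blocked fit called 9 lower and 5 higher, with a median of -0.20. Of all genes 21.6% were called lower and 20.6% higher, so the higher calls of this list were near the share over all genes. Without the block 1 was called in each direction. CDK6, a cyclin D kinase, was the higher one, at 3.11 and 3.80 FPKM in esiUSP9X, 8.47 and 11.9 FPKM in esiFLI1, and 2.57 and 2.86 FPKM in esiGFP, with a log2 change of 1.58 (blocked interval 1.30 to 1.86), with adjusted p = 0.0375 without the block and 8.17e-05 with it. CCND1, which encodes cyclin D1 and is also on the Ewing sarcoma list, was the lower one, at 413 and 394 FPKM in esiUSP9X, 220.0 and 204 FPKM in esiFLI1, and 472 and 459 FPKM in esiGFP, with a log2 change of -1.13 (blocked interval -1.35 to -0.92), with adjusted p = 0.0326 without the block and 0.000119 with it. CDC25A, the phosphatase that activates CDK2, changed by -0.91 (blocked interval -1.17 to -0.65), with adjusted p = 0.0941 without the block and 0.000697 with it. RBL2, the pocket protein p130 of resting cells, was higher, at 15.3 and 17.6 FPKM in esiUSP9X, 19.7 and 24.8 FPKM in esiFLI1, and 11.8 and 13.6 FPKM in esiGFP, with a log2 change of 0.76 (blocked interval 0.53 to 0.99), with adjusted p = 0.163 without the block and 0.000881 with it. CDKN2A and CDKN2B were listed at 0 in all 6 libraries.

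Of 35 G2 and mitosis genes, the blocked fit called 5 lower and 2 higher in esiFLI1, with a median of -0.05, where 21.6% of all genes were lower and 20.6% higher. Without the block 0 were called (1 higher at an unadjusted p under 0.05). The summed level of this list was 2800 and 3106 FPKM in esiUSP9X, 2597 and 3147 FPKM in esiFLI1, and 2677 and 3174 FPKM in esiGFP, so the groups overlapped. PLK1, a mitotic kinase, changed by -0.52 and MAD2L1, of the spindle checkpoint, by -0.52, with blocked adjusted p of 0.0144 and 0.00869. KIF20A, a kinesin of cytokinesis, changed by 0.56 and CENPF, of the kinetochore, by 0.50, with blocked adjusted p of 0.00296 and 0.0112. No test of the difference between this list and the members was run.

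**Figure D4:**
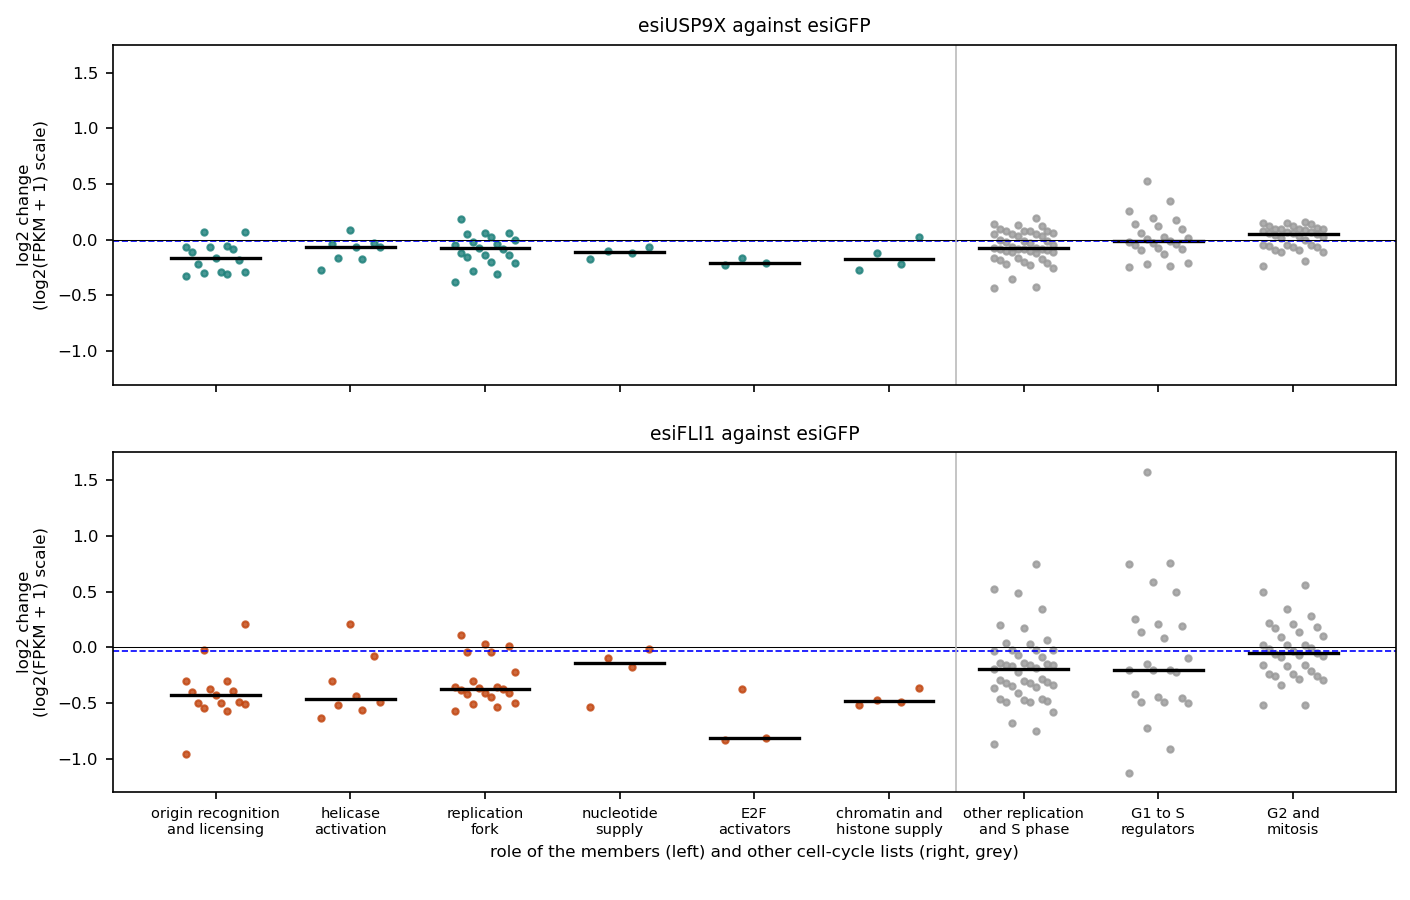
Log2 change of each gene on the log2(FPKM + 1) scale in esiUSP9X (top) and esiFLI1 (bottom) against esiGFP, with members in colour by role, other cell-cycle lists in grey, medians as black bars and the median of all genes as a dashed line. In esiFLI1 the medians of the member roles run from -0.82 to -0.14 and that of the G2 and mitosis genes is -0.05, and in esiUSP9X all medians lie between -0.21 and 0.05.

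After USP9X knockdown the members had changes closer to 0 than after FLI1 knockdown. In esiUSP9X against esiGFP, 44 of the 54 had a log2 change below 0, with a median of -0.12 against -0.01 over all genes tested. Without esiGFP replicate 2, 33 were below 0 and the median was -0.054 against -0.035 over all genes (37 and -0.05 with the block), and under quantile normalization the median was -0.063. No member was called by limma in either fit, 0 members without the block and 0 with it, and 0 reached an unadjusted p under 0.05 without the block. Over all genes 0.0247% were called without the block, and 0.0740% higher and 0.164% lower with it, so few calls were available to any list. At an unadjusted p under 0.05 in the blocked fit, 11 members were lower and 0 higher, against 10.9% of all genes in either direction. Without overlap between the groups, 17 members were lower in esiUSP9X, where 7.82% of all genes were, and 2 were higher, ORC6 and RPA3, where 8.75% of all genes were. In replicate 1, 35 members were lower in esiUSP9X, and in replicate 2, 46 were.

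The blocked 95% intervals show how large a change the blocked fit leaves room for, given a pairing that comes from the data. Over the 54 members their bounds ran from -0.62 to 0.41, so a fall by 1 log2 unit lay outside the blocked interval of every member. This limit was not shown for the fit without the block. There the standard error was wider for several members, such as 0.53 against 0.13 for CDT1. PCNA with 323 ± 6.49 FPKM in esiUSP9X and 421 ± 54.5 FPKM in esiGFP (mean ± SD, n = 2), had the lowest change, -0.38 (blocked interval -0.61 to -0.14), with adjusted p = 1 without the block and 0.273 with it. MCM3 stood at 111 and 93.6 FPKM in esiUSP9X, 111 and 85.3 FPKM in esiFLI1, and 137 and 119.7 FPKM in esiGFP, with no overlap between esiUSP9X and esiGFP and a log2 change of -0.33 (blocked interval -0.55 to -0.10), with adjusted p = 1 without the block and 0.298 with it. CDT1 came next at -0.31 (blocked interval -0.62 to 0.01), with adjusted p = 1 without the block and 0.471 with it, with overlapping groups. The highest change was that of RPA3, 0.19 (blocked interval -0.04 to 0.41), with adjusted p = 1 without the block and 0.568 with it. DBF4 followed at 0.09 (blocked interval -0.14 to 0.33), with adjusted p = 1 without the block and 0.797 with it. ORC6 stood at 49.4 and 50.2 FPKM in esiUSP9X, 34.6 and 36.8 FPKM in esiFLI1, and 46.5 and 48.3 FPKM in esiGFP, with a log2 change in esiUSP9X against esiGFP of 0.07 (blocked interval -0.14 to 0.28), with adjusted p = 1 without the block and 0.841 with it.

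By role, the medians in esiUSP9X against esiGFP were -0.21 for the E2F activators, -0.17 for licensing and for chromatin and histone supply, -0.11 for nucleotide supply, -0.08 for the fork and -0.07 for helicase activation. With a library left out and no block, the median ranged from -0.405 to -0.013 for the E2F activators, -0.236 to 0.014 for helicase activation, -0.221 to 0.006 for nucleotide supply and -0.143 to -0.002 for the fork. That of licensing was -0.071 without esiGFP replicate 2 in the blocked fit. For E2F1 the change was -0.16 (blocked interval -0.40 to 0.07), for E2F2 -0.21 (-0.46 to 0.04) and for E2F3 -0.22 (-0.47 to 0.03). The other lists had medians of -0.07 for further replication genes, -0.01 for G1 to S regulators and 0.05 for G2 and mitosis genes, with 0 genes called in either fit and 1 G1 to S regulator at an unadjusted p under 0.05 without the block.

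The knockdowns were also compared directly. In esiUSP9X against esiFLI1, the median log2 change of the members was 0.29, against 0.02 over all genes. Without the block limma called 0 members, where 0.419% of all genes were called higher and 2.66% lower (3.08% in either direction). At an unadjusted p under 0.05, 3 members were higher, where 5.36% of all genes were. In the blocked fit 25 members were higher in esiUSP9X, against 20.2% of all genes, and 0 lower, against 20.9%. Libraries did not overlap for 26 members that were higher in esiUSP9X, against 18.4% of all genes, and for 1 that was lower, RPA1, against 21.1%. The mean of esiUSP9X lay between those of esiFLI1 and esiGFP for 37 of the 54 members, with esiFLI1 lowest, where 25.4% of all genes showed that order of means. For 12 members all 3 groups stood apart without overlap in that order, where 1.82% of all genes were, namely ORC1, CDC6, MCM4, CDC45, GINS2, PCNA, RFC2, RRM2, E2F3, CHAF1B, UHRF1 and SLBP, which were chosen after their values were seen. This comparison shares the esiFLI1 libraries with the one against esiGFP.

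The widest differences between the knockdowns were those of CDT1, E2F1 and E2F2. CDT1 was higher in esiUSP9X by 0.66 (blocked interval 0.34 to 0.97), with adjusted p = 0.674 without the block and 0.00678 with it. E2F1 was higher by 0.65 (blocked interval 0.42 to 0.89), with adjusted p = 0.6 without the block and 0.00197 with it, and E2F2 by 0.62 (blocked interval 0.37 to 0.88), with adjusted p = 0.425 without the block and 0.00326 with it. E2F3 differed by 0.15 and was not called (blocked adjusted p = 0.288). At the other end, ORC3 stood at 32.3 and 36.8 FPKM in esiUSP9X, 36.6 and 48.1 FPKM in esiFLI1, and 31.8 and 41.2 FPKM in esiGFP, with a log2 change in esiUSP9X against esiFLI1 of -0.28 (blocked interval -0.51 to -0.04), with adjusted p = 0.691 without the block and 0.0584 with it. CDC7 followed at -0.24 (blocked interval -0.49 to 0.01), with adjusted p = 0.852 without the block and 0.109 with it. With GC content removed from each library, the blocked fit called ORC3, CDC7 and TK1 lower in esiUSP9X, at -0.235, -0.194 and -0.17 (adjusted p = 0.0208, 0.0474 and 0.0496), and 33 members higher. Over all genes that fit called 25.8% lower and 26.2% higher. LIG1 stood at 39.8 and 26 FPKM in esiUSP9X, 45.7 and 26.5 FPKM in esiFLI1, and 47.6 and 27.1 FPKM in esiGFP, with a log2 change of -0.11 (blocked interval -0.34 to 0.12), with adjusted p = 0.956 without the block and 0.402 with it. By role the medians were 0.62 for the E2F activators, 0.35 for helicase activation, 0.34 for chromatin and histone supply, 0.32 for licensing, 0.25 for the fork and 0.02 for nucleotide supply. In the fit without the block, the median of the E2F activators was 0.328 without esiUSP9X replicate 1 and 0.21 without esiFLI1 replicate 2, and that of nucleotide supply lay between -0.039 and 0.369 with a library left out.

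The difference between replicates followed the base composition of the transcripts. The log2 difference of replicate 2 minus replicate 1 had a Pearson correlation over the 54 members with the GC content of their transcripts of -0.88 in esiUSP9X, -0.94 in esiFLI1 and -0.91 in esiGFP, where the points of a panel share their libraries. Over 11470 genes with a GC value it was -0.59, -0.75 and -0.74 in the same order of groups. TK1 was lowest in replicate 2 relative to replicate 1 in esiUSP9X and esiFLI1, by -0.99 and -1.31, and POLD1 in esiGFP, by -1.40. DBF4 was highest in all 3 groups, at 0.66 in esiUSP9X, 0.89 in esiFLI1 and 0.78 in esiGFP. The log2 change in esiFLI1 against esiGFP itself correlated with GC content at -0.48 over the members and -0.11 over all genes. With GC content removed from each library, the blocked fit kept 39 of 39 calls in esiFLI1 against esiGFP and 25 of 25 in esiUSP9X against esiFLI1. That fit also called more of all genes. In the first comparison 26.4% were lower, against 21.6% without the correction, and in the second 26.2% were higher, against 20.2%.

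**Figure D5:**
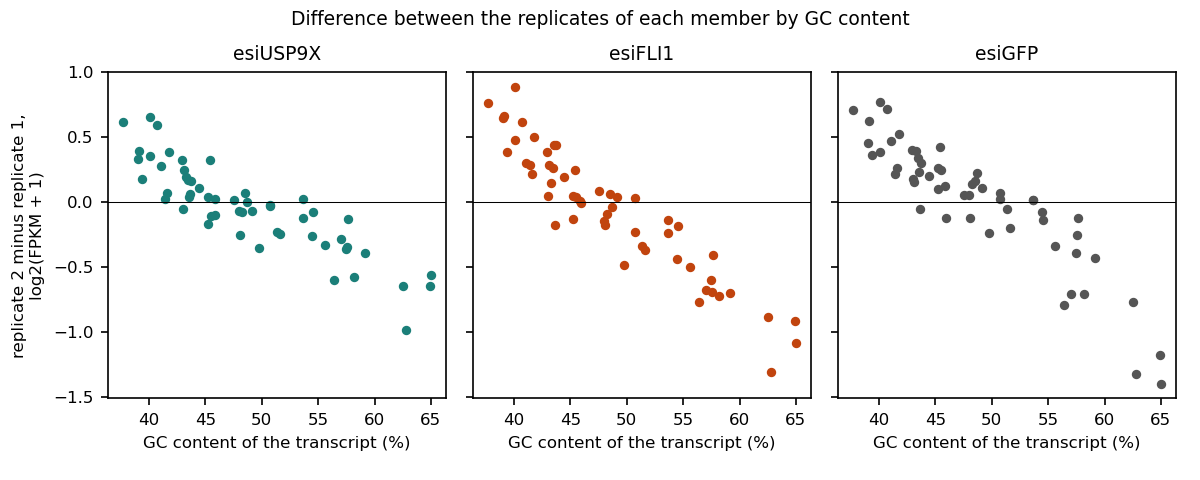
Difference of replicate 2 minus replicate 1 in log2(FPKM + 1) for each of the 54 members, by the GC content of its transcript in percent, in the 3 groups. In each panel AT-rich members such as DBF4 lie above 0 and GC-rich members such as TK1 and POLD1 lie up to -1.40 below it.

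Single libraries bore on the number of calls, over all genes as well as among the members. With a library of the compared groups left out, a smaller share of all genes was called in the direction of the members. Fewer members were called in those fits as well. Such a fit leaves a single library in a group, so only the size of the change is given for it. In esiFLI1 against esiGFP, the blocked median of the members was -0.406 with all 6 libraries. It was -0.458 without esiFLI1 replicate 1, -0.372 without esiFLI1 replicate 2, -0.433 without esiGFP replicate 1 and -0.351 without esiGFP replicate 2. In esiUSP9X against esiFLI1 it was 0.294 with all 6 libraries. It was 0.249 without esiUSP9X replicate 1, 0.287 without esiUSP9X replicate 2, 0.29 without esiFLI1 replicate 1 and 0.239 without esiFLI1 replicate 2. With esiUSP9X replicate 1 or 2 left out, the share of members called in this comparison was near that of all genes.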

How the data were processed

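Stranded libraries from 2 µg of total RNA, depleted of ribosomal RNA, were read as 75-nt single ends, per the labels' protocols. The builds hg19 and GRCh37 and the tools TopHat, Cufflinks and Cuffdiff are named in the submitters' processing notes, without versions or roles. The authors deposited FPKM values per gene symbol and library, made by them. The use of strand in counting is not given in the sources used here, which leaves genes that overlap others or have near-identical copies uncertain. A stray line was dropped (1 line), 0 columns belonged to no sample, and no further scaling was applied. The filter of 1 FPKM in 2 libraries kept 12169 of 25268 genes, of which 107 were listed at 0 in a library.

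Log2(FPKM + 1) was fitted with limma 3.58.1 in R 4.3.3 (3 group means, trend, two-sided, Benjamini-Hochberg adjustment over the kept genes, threshold 0.05), with 3 residual and 2.21 prior degrees of freedom. Fold changes on this scale understate those of low genes. Each SD is over 2 libraries. The blocked fit added the replicate number, with 2 residual and 5.72 prior degrees of freedom, and its intervals are at 95%. The labels state no shared day, so the pairing comes from the data. Deviations from the group means correlated at 0.644 for esiUSP9X and esiFLI1, 0.589 for esiUSP9X and esiGFP and 0.647 for esiFLI1 and esiGFP. A blocked value stands beside each result whose call it changes. The procedure was tested on simulated data.

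GC content came from GENCODE v29 transcripts, matched by symbol for 94.3% of the kept genes and all 54 members. Promoters came from RefSeq on GRCh38.p14 by symbol, and no coordinates were taken from the deposited table. The members and all lists were chosen with earlier results of these data known, so no list was tested and no p was adjusted over a list. Values per library are given for the 5 members with the largest absolute change in esiFLI1 of each role with over 4 genes, for all members of smaller roles, for the 3 highest and 3 lowest changes in the other comparisons, and for up to 4 genes of each further list. GINS3, KDR and KRT8 were given per library outside this rule, after their values were seen. The alternatives covered the pseudocount (0.1), the low-value filter (none, 5 FPKM), quantile and median-of-ratios scaling, the trend, pairs of groups, GC correction and each library left out.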

Additional observations from a re-analysis of the deposited data

How the results depend on the processing

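Without a block, the counts of members called stayed at 0 in each comparison under the alternatives run. With the replicate block, limma called 39 members in esiFLI1 against esiGFP and 25 in esiUSP9X against esiFLI1, the same numbers as with a pseudocount of 0.1 and the block. Combined with the block, the pair of counts was 30 and 20 under quantile normalization (29 lower and 1 higher, then 19 higher and 1 lower, where ORC3 was the exception both times), 38 and 26 under median-of-ratios scaling (25 higher and ORC3 lower in the second), 41 and 36 with GC correction (33 higher, and ORC3, CDC7 and TK1 lower in the second), 37 and 26 with 2 groups only, 40 and 26 with a filter of 5 FPKM, and 37 and 23 without a trend. Leaving out a library with the block gave 16 to 37 in esiFLI1 against esiGFP (37 without either esiUSP9X library, 26 and 16 without esiFLI1 replicate 1 or 2, 28 and 16 without esiGFP replicate 1 or 2) and 5 to 26 in esiUSP9X against esiFLI1 (6 and 5, 15 and 7, and 26 without either esiGFP library, in the same order). In the blocked alternatives that left no library out, 19.1% to 26.4% of all genes were called lower in esiFLI1 against esiGFP. In esiUSP9X against esiFLI1, 19.4% to 26.2% were called higher, and both shares were highest with GC correction. Leaving out a library of the compared groups lowered the share over all genes too. The GC correction and the blocked alternatives with 2 groups, 5 FPKM, a pseudocount of 0.1 or no trend were chosen after seeing the data. In esiUSP9X against esiGFP the blocked counts were 0.

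The median change kept its direction under the alternatives run. In esiUSP9X against esiGFP it was -0.063 under quantile normalization and ranged from -0.164 to -0.054 with a library left out (-0.05 without esiGFP replicate 2 with the block). In esiFLI1 against esiGFP it was -0.325 under quantile normalization. In esiUSP9X against esiFLI1 it was 0.227 under quantile normalization, 0.276 under median-of-ratios scaling, 0.275 with GC correction and the block, 0.241 to 0.294 with a library left out, and 0.239 to 0.294 with the block as well (0.249 and 0.287 without esiUSP9X replicate 1 or 2).

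Changes of named genes turned in sign in 22 cases, none of them called in the setting in which it turned. The genes concerned were not called in either fit of the report, but with the block POLD1 was called lower in esiFLI1 with 2 groups only, a filter of 5 FPKM, and without either esiUSP9X library or esiGFP replicate 2 (adjusted p between 0.00011 and 0.043), and CDC7 with GC correction. In esiFLI1 against esiGFP, RRM1 turned to 0.137 under quantile normalization and 0.003 under median-of-ratios scaling, ranged from -0.185 to 0.153 with a library left out (0.114 without esiFLI1 replicate 1), and was 0.044 without esiGFP replicate 2 in the blocked fit. TK1 turned to 0.042 under quantile normalization and 0.054 with GC correction. It ranged from -0.76 to 0.559 with a library left out (0.554 without esiFLI1 replicate 2). Within replicate numbers 1 and 2 it differed by -0.106 and -0.095. POLD1 ranged from -1.205 to 0.191 (0.034 without esiFLI1 replicate 2) and TYMS from -0.42 to 0.064. In esiUSP9X against esiGFP, CDT1 ranged from -0.896 to 0.282 (0.015 without esiUSP9X replicate 2) and DBF4 from -0.295 to 0.48 (-0.237 without esiUSP9X replicate 2). In esiUSP9X against esiFLI1, LIG1 ranged from -0.494 to 0.272 (0.187 without esiUSP9X replicate 2) and CDC7 from -0.569 to 0.092. The causes were not tested. With 2 libraries a group and unknown depth, small differences cannot be resolved.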

Other observations

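Partners of the E2F activators went in both directions in esiFLI1, by the blocked limma fit and with genes chosen after their values were seen. That fit called 21.6% of all genes lower and 20.6% higher. MYBL2, a transcription factor of S phase and mitosis genes, stood at 165 and 135 FPKM in esiUSP9X, 114 and 72.3 FPKM in esiFLI1, and 163 and 139 FPKM in esiGFP, with no overlap between esiFLI1 and esiGFP and a log2 change of -0.72 (blocked interval -1.01 to -0.44), with adjusted p = 0.297 without the block and 0.00282 with it. The repressive E2F factors E2F4 at -0.42, E2F5 at -0.50 and E2F6 at -0.49 were called lower, with blocked adjusted p between 0.006 and 0.032 and adjusted p between 0.355 and 0.81 without the block. TFDP2, a dimer partner of E2F factors, stood at 6.21 and 6.15 FPKM in esiUSP9X, 10.3 and 9.82 FPKM in esiFLI1, and 5.54 and 5.62 FPKM in esiGFP, higher in both esiFLI1 libraries, with a log2 change of 0.75 (blocked interval 0.52 to 0.98), with adjusted p = 0.108 without the block and 0.00102 with it. Its relative TFDP1 was at -0.22 and was not called (blocked adjusted p = 0.19). Of the pocket proteins, RB1 at 0.09 and RBL1 at -0.10 were not called either, with blocked intervals of -0.15 to 0.33 and -0.33 to 0.13. CCNE2, which encodes a cyclin E, went against the replication genes, with 5.38 and 7.46 FPKM in esiUSP9X, 7.80 and 13.2 FPKM in esiFLI1, and 4.84 and 8.49 FPKM in esiGFP and a log2 change of 0.59 (blocked interval 0.32 to 0.85), with adjusted p = 0.566 without the block and 0.00567 with it. CCNE1, the other cyclin E, was at 0.14 (blocked interval -0.20 to 0.48).

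DNMT1, the maintenance methyltransferase that UHRF1 brings to DNA, stood at 86.7 and 81.7 FPKM in esiUSP9X, 68.4 and 54 FPKM in esiFLI1, and 86.2 and 85.2 FPKM in esiGFP, without overlap between esiFLI1 and esiGFP, and changed by -0.49 (blocked interval -0.74 to -0.24), with adjusted p = 0.302 without the block and 0.00942 with it.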
